A study of Rattus norvegicus with 6 samples.

Results

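Skeletal muscle and myogenic genes formed a group of 40 gene symbols, chosen by symbol out of 29468 symbols listed in the rat transcript tables. They comprised 6 transcription factors of the myogenic lineage, 22 genes of the contractile apparatus (myosin chains, sarcomeric actins, troponins, a tropomyosin, the giant, Z-disc and M-band proteins, and desmin), 5 receptors of the neuromuscular junction, 4 genes of calcium release, oxygen storage and energy buffering, and 3 genes of cell adhesion and sarcomere assembly. Levels were compared between Schwann cell precursors (SCPs) and repair Schwann cells (RSCs), with 3 preparations of each, all from LEWIS rats that the labels give as wild type, while the methods describe RFP-expressing LEWIS rats as the source of grafted cells. SCPs came from untreated embryos at embryonic day 14, from the sciatic nerves of both sides and the brachial plexus. RSCs came from the nerve stump distal to a cut made 1 week earlier in the sciatic nerve, in rats aged 10 weeks. The nerves were dissociated with collagenase and trypsin, cells that stuck to an uncoated flask were discarded and the floating cells were used, and the methods name no sort for a Schwann cell marker. The labels do not state whether the preparations of a group came from separate litters or animals, so p-values measure the spread between these preparations.

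Skeletal muscle forms from progenitors that carry the paired-box factor Pax7 or its relative Pax3, are committed by the basic helix-loop-helix factors Myf5 and Myod1, and are driven into differentiation by Myog. These factors bind the E-box, CANNTG, often together with Mef2 factors, and turn on the genes of the sarcomere, which in the embryo include isoforms that are later replaced by adult ones. Peripheral nerve contains no skeletal muscle of its own, whereas the limb and shoulder muscles form beside the nerves in the embryo.

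In bulk RNA, fewer cells of a type and less RNA per cell cannot be told apart. The Schwann lineage factor Sox10 was at 175 to 181 FPKM (fragments per kilobase of transcript, relative to all mapped fragments) in SCPs and at 143 to 149 FPKM in RSCs. The Schwann lineage receptor gene Erbb3 was listed at 0 in SCP replicate 1 and RSC replicate 2 and at 31.6 to 111 FPKM in the other libraries, so a 0 in these tables can be a failed estimate and is given below only as listed at 0. The tables hold no counts and the absolute depth is unknown. Coverage divided by FPKM, which rises with depth, ran from 0.88 to 1.00 of the deepest library in SCPs and from 0.79 to 0.84 in RSCs. Marker lists of other cells differed widely between the groups. Summed FPKM was 2197 to 2643 for 8 leukocyte markers in RSCs and 13.3 to 39.7 in SCPs, and for 8 fibroblast markers 5369 to 8027 against 681 to 1041. In the limma test described below (unadjusted p under 0.01), 5 of the 8 fibroblast markers were higher in RSCs and 1 in SCPs. The shares of all tested genes were 18.1% and 22.4%. Twist2 was at 21.3, 11.6 and 12.2 FPKM in SCPs and 4.86, 6.97 and 6.78 in RSCs, and Prrx1 overlapped between the groups. For 5 erythroid markers the sum was 23723, 16706 and 74702 in SCP replicates 1, 2 and 3 and at most 1.81 in RSCs, and for 5 cartilage markers it was 59.6, 86.4 and 112 against 0.60 to 2.80. Most of the cartilage sum in SCPs came from a single gene, Col2a1, at 58.6, 85.9 and 103 FPKM. For 8 Schwann lineage markers the sum was 451 to 511 in SCPs and 1873 to 2395 in RSCs, for 6 endothelial markers 23.6 to 37.9 and 37.0 to 43.9, and for 7 neuronal markers 27.5 to 50.9 and 17.5 to 23.9. The part of these other cells in the muscle gene levels was not tested.

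The calls among the muscle genes lay mostly toward SCPs, and their number depended on the filter for low values. Of the 40 genes, 28 averaged 1 FPKM or more across all libraries and were tested on the log2(FPKM + 1) scale with limma. At an unadjusted p under 0.01, 16 were higher in SCPs, where 22.4% of all 13003 tested genes were, and 1 was higher in RSCs, where 18.1% of all tested genes were. In 11 of the 16 the difference exceeded 2 on the log2 scale (4-fold), which 3.78% of all tested genes did in that direction. The gene higher in RSCs, Des, did not exceed 4-fold, as 7.81% of all tested genes did toward RSCs. These counts include Myod1 and Myf5, and the count of 16 also includes Pax7, all of which were listed at 0 in every RSC library. Of the 28 tested genes, 14 reached the mean of 1 FPKM only through SCPs, and 13 of the 16 were among them, so their number is partly set by that filter. The other 14 averaged 1 FPKM or more in each group, and 3 of these were higher in SCPs, 1 was higher in RSCs and 10 did not pass. Among all 10838 genes that averaged 1 FPKM or more in each group, 22.4% were higher in SCPs and 14.9% in RSCs, so the share of muscle genes called toward SCPs in this subset was near the background. The median difference, RSC minus SCP, was -1.64 over the 28 genes and -0.17 over all tested genes, and without any filter -1.14 and -0.07. The medians of the muscle genes rest in part on genes listed at 0, whose fitted values depend on the added 1, and the filtered one also on the genes that entered through their SCP level. Without any filter, 19 of 39 genes were higher in SCPs (background 16.8%) and 1 in RSCs (13.4%). All 3 SCP values lay above all 3 RSC values in 24 of the 40 genes, as in 26.9% of the genes above 0 in some library, and the reverse held for 2 genes, Des and Tpm2, against 19.6%. In the remaining 14 the groups overlapped. With Benjamini-Hochberg adjusted p under 0.01 in place of the unadjusted p, 9 genes were higher in SCPs (16.6% of all tested genes) and Des was higher in RSCs (15.0%). Median-of-ratios scaling moved the median of all tested genes to 0.0197, and 12 muscle genes were then higher in SCPs (16.8%) and 2 in RSCs (21.4%). Cufflinks also assembled transcripts without a gene name, and with these added to the gene of their locus, 23 of 29 tested genes were higher in SCPs (34.1% of all tested genes) and 1 was higher in RSCs (23.2%).

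**Figure D1:**
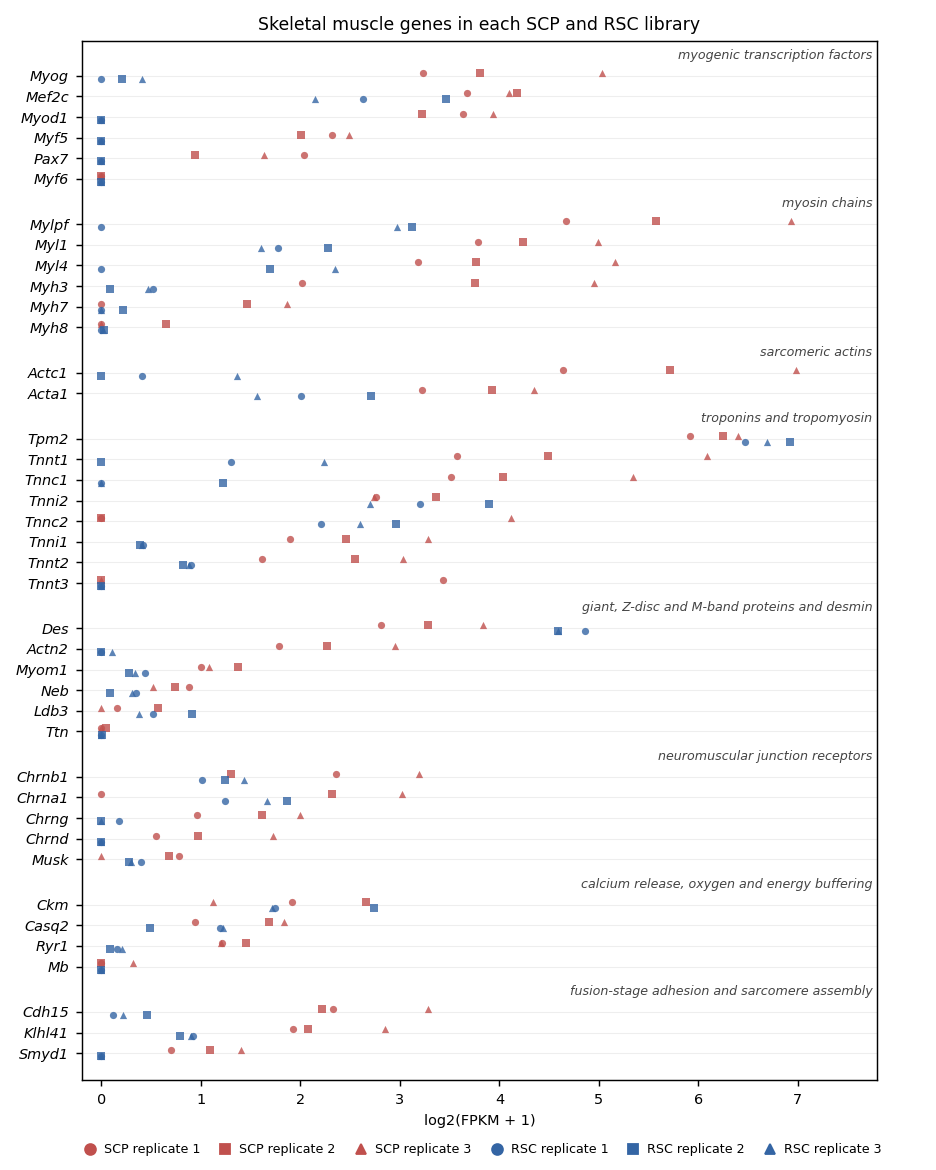
Each row is 1 of the 40 muscle genes, grouped by role and ordered by the SCP mean, and each mark is 1 library (red, SCP; blue, RSC; circle, square and triangle for replicates 1, 2 and 3) on a log2(FPKM + 1) axis. Marks at 0 lie on top of each other. Red marks lie to the right of all blue marks in 24 rows and to the left of them in 2, Des and Tpm2.

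Myod1, Myf5 and Myog, which commit and differentiate muscle cells, were above 0 in every SCP library and listed at 0 or at most 0.323 FPKM in RSCs. Myod1 (chromosome 1 from 102396538 to 102399248 of rn6), the commitment factor, was at 11.4, 8.36 and 14.3 FPKM in SCP replicates 1, 2 and 3 and was listed at 0 in every RSC library (adjusted p = 0.00015). Myf5 (chromosome 7 from 49729533 to 49732764), the earliest of the family in the embryo, was at 3.98, 3.01 and 4.63 FPKM in SCPs and was listed at 0 in every RSC library (adjusted p = 0.00063). The SCP values of both genes lay within a narrow range. Myog (chromosome 13 from 51126459 to 51129048), the differentiation factor, was at 8.40, 13 and 31.8 FPKM in SCPs and at 0, 0.152 and 0.323 in RSCs, a log2 difference of -3.82 (standard error 0.48, adjusted p = 0.0014). In SCP replicates 2 and 3 it was the highest of the family. Myf6, the late member of the family, was listed at 0 in all 6 libraries, and lies 6.9 kb from Myf5. Pax7 (chromosome 5 from 158212922 to 158313510), which marks muscle progenitors and also parts of the neural tube and neural crest, was at 3.11, 0.918 and 2.1 FPKM in SCPs and was listed at 0 in every RSC library (adjusted p = 0.012). Its call was lost without any one of the RSC libraries (unadjusted p of 0.013 to 0.014). Mef2c (chromosome 2 from 11678513 to 11822788), a partner of these factors that many other cell types also use, was at 11.8, 17.1 and 16.1 FPKM in SCPs and 5.20, 10.0 and 3.42 in RSCs. The groups did not overlap, but its log2 difference of -1.24 (standard error 0.36, adjusted p = 0.034) did not pass an unadjusted p of 0.01, except without RSC replicate 2 (-1.59, unadjusted p = 0.0018). The 4 factors Myod1, Myog, Myf5 and Myf6 together summed to 23.8, 24.3 and 50.7 FPKM in SCPs and to 0, 0.152 and 0.323 in RSCs. The promoter of Myog is shown because it is the target of the other factors and holds their binding motif. The window runs from 250 bases before to 50 bases after the RefSeq start on the GRCr8 build, and capitals mark E-boxes. They begin at positions -157 and -31, where the listed start is 1 and the base before it -1.
Myog promoter, chr13:48297226-48297525, plus strand: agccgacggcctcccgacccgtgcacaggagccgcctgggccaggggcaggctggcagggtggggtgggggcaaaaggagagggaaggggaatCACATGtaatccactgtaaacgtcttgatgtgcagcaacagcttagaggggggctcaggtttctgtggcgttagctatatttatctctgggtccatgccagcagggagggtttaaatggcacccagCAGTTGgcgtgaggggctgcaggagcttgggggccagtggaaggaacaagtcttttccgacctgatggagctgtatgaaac
Over 33469 RefSeq promoter windows of this length, 72.1% held an E-box on either strand, and 15.1% held the form CAGCTG. Of the 40 genes 35 had entries, with 37 windows, of which 31 (83.8%) held an E-box and 11 (29.7%) the form CAGCTG. The motif TATAAA stood in 14.2% of all windows and in 11 of the 37 (29.7%). The Mef2 site stood in 3.29% of all windows and in 5 of the 37 (13.5%). Myod1, Mef2c, Mylpf, Tnnt3 and Tnnc1 had no entry. These are letter matches and were not tested.

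The sarcomeric actins form the thin filament. Actc1 (chromosome 3 from 105507403 to 105512939), the cardiac actin gene that embryonic skeletal muscle also uses, was at 23.9, 51.5 and 125.2 FPKM in SCP replicates 1, 2 and 3 and at 0.323, 0 and 1.57 in RSCs, a log2 difference of -5.19 (standard error 0.66, adjusted p = 0.0015). It had the lowest log2 difference of the 28 tested genes. Acta1 (chromosome 19 from 56674072 to 56677084), the actin of adult skeletal muscle, was at 8.33, 14.2 and 19.3 FPKM in SCPs and 3.03, 5.53 and 1.96 in RSCs, a log2 difference of -1.74 (standard error 0.41, adjusted p = 0.015). The groups did not overlap for either gene. The unadjusted p of Acta1 rose to 0.021 without SCP replicate 2, to 0.020 without SCP replicate 3 or without RSC replicate 1, and to 0.018 without RSC replicate 3. The 2 actin promoters are shown side by side because the genes encode nearly the same protein and differed in level. Capitals mark E-boxes and the CArG box, the binding motif of serum response factor.
Actc1 promoter, chr3:121271778-121272077, minus strand: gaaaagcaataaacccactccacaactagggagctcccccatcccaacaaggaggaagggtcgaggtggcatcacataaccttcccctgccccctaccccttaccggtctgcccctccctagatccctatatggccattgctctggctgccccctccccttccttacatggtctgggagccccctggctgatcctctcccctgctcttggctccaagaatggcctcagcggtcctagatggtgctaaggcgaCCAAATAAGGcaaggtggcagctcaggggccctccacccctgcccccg
Acta1 promoter, chr19:68784145-68784444, minus strand: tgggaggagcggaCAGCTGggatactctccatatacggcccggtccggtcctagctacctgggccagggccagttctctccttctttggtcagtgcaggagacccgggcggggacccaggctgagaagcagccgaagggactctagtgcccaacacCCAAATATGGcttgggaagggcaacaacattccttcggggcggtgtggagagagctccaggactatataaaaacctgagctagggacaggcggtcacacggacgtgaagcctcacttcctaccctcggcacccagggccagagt
The CArG box began at position 3 in Actc1 and at -94 in Acta1. It stood in 1.64% of all windows and in 4 of the 37 windows of these genes (10.8%). The Actc1 window held no E-box, and the Acta1 window held 1, of the form CAGCTG, at -237.

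The myosin chains, motors of the thick filament, were led in SCPs by 3 light chains and the embryonic heavy chain. Mylpf (chromosome 1 from 198655835 to 198658590), the regulatory light chain of fast fibres, was at 24.4, 46.5 and 120.9 FPKM in SCPs and at 0, 7.72 and 6.82 in RSCs, and did not pass the threshold (log2 difference -3.69, standard error 1.00, adjusted p = 0.026). In RSC replicate 1 a transcript without a gene name in the same assembled locus held 6.01 FPKM, and with such transcripts added to their genes the log2 difference was -2.75 (standard error 0.53, adjusted p = 0.0036). Myl1 (chromosome 9 from 73937820 to 73958480), an alkali light chain of fast fibres, was at 12.8, 17.8 and 30.9 FPKM in SCPs and 2.43, 3.85 and 2.04 in RSCs (log2 difference -2.45, standard error 0.36, adjusted p = 0.0026). The alkali light chain of embryonic muscle and the atrium, Myl4, was at 8.10, 12.6 and 34.8 FPKM in SCPs and 0, 2.24 and 4.08 in RSCs, a log2 difference of -2.69 (standard error 0.77, adjusted p = 0.030) that did not pass. All 3 light chains lay higher in every SCP library than in any RSC library. Myh3 (chromosome 10 from 53621375 to 53645194), the embryonic heavy chain, was at 3.04, 12.5 and 29.9 FPKM in SCPs and 0.430, 0.0651 and 0.380 in RSCs (log2 difference -3.22, standard error 0.73, adjusted p = 0.014). Its call was lost without SCP replicate 2 or without any of the RSC replicates, with an unadjusted p of 0.015 to 0.019, and the log2 difference stayed between -3.99 and -2.53 with each library left out. The slow and cardiac heavy chain Myh7 was listed at 0, 1.75 and 2.64 FPKM in SCPs and 0, 0.166 and 0 in RSCs, and the perinatal heavy chain Myh8 did not exceed 0.565 FPKM in any library. Neither reached the level for testing.

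The troponins make the thin filament sensitive to calcium. Of the 7 troponin genes, 4 were higher in SCPs by limma at an unadjusted p under 0.01, as were 22.4% of all tested genes. Among these 4, Tnnc1, Tnni1 and Tnnt2 reached the mean of 1 FPKM only through SCPs, so the count is partly set by that filter. Tnnc1 (chromosome 16 from 7292207 to 7295425), the calcium-binding subunit of slow and cardiac muscle, was at 10.4, 15.4 and 39.7 FPKM in SCPs and at 0, 1.34 and 0 in RSCs (log2 difference -3.89, standard error 0.58, adjusted p = 0.0028). Tnnt1 (chromosome 1 from 72889270 to 72899629), the slow tropomyosin-binding subunit, was at 10.9, 21.4 and 67.1 FPKM in SCPs and 1.46, 0 and 3.71 in RSCs (log2 difference -3.54, standard error 0.82, adjusted p = 0.015). Tnni1 (chromosome 13 from 52624856 to 52637297), the slow inhibitory subunit, was at 2.71, 4.50 and 8.74 FPKM in SCPs and 0.332, 0.306 and 0.325 in RSCs (log2 difference -2.14, standard error 0.38, adjusted p = 0.0055). These 3 slow-fibre subunits did not overlap between the groups. The cardiac and embryonic subunit Tnnt2, which lies 25.7 kb from Tnni1, was at 2.07, 4.84 and 7.2 FPKM in SCPs and 0.865, 0.763 and 0.841 in RSCs (log2 difference -1.53, standard error 0.39, adjusted p = 0.020). Tnnt1 lost its call without SCP replicate 2 or 3 or RSC replicate 1 or 2 (unadjusted p of 0.013 to 0.017), and Tnnt2 lost it without any of the libraries except SCP replicate 1 (0.019 to 0.028).

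The 3 fast-fibre troponin genes did not pass the test, and whether they differed from the slow ones was not tested. Tnni2, the fast inhibitory subunit, was at 5.75, 9.32 and 5.69 FPKM in SCPs and 8.17, 13.9 and 5.49 in RSCs, a log2 difference of 0.31 (standard error 0.36, adjusted p = 0.51), and its groups overlapped. Tnnc2, the fast calcium-binding subunit, was listed at 0, 0 and 16.4 FPKM in SCPs and at 3.62, 6.81 and 5.06 in RSCs. Unnamed transcripts of the same locus held a further 8.54, 17.5 and 12.6 FPKM in the SCP libraries and nothing in RSCs, and adding them turned the log2 difference from 1.22 (standard error 1.16, adjusted p = 0.43) to -1.53 (standard error 0.42, adjusted p = 0.017). The direction for Tnnc2 thus depended on how the assembled transcripts were assigned. Tnnt3, the fast tropomyosin-binding subunit, was listed at 9.77 FPKM in SCP replicate 1 and at 0 in the other 5 libraries. It lies 55.0 kb from Tnni2, which was above 0 in all 6. Unnamed transcripts within the span of Tnnt3, assigned to no named gene, held 4.23 FPKM in RSC replicate 1 and 8.73 in RSC replicate 2. Tpm2 (chromosome 5 from 59016616 to 59025971), the beta chain of tropomyosin, which smooth muscle and fibroblasts also make, had the highest mean of the 40 genes in both groups. It was at 59.3, 74.9 and 83.1 FPKM in SCPs and 87.5, 119.9 and 102 in RSCs, a log2 difference of 0.51 (standard error 0.17, adjusted p = 0.052). Every RSC value lay above every SCP value, and the difference passed an unadjusted p of 0.01 with median-of-ratios scaling (log2 difference 0.72) and with the highest transcript per gene (1.24).

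**Figure D2:**
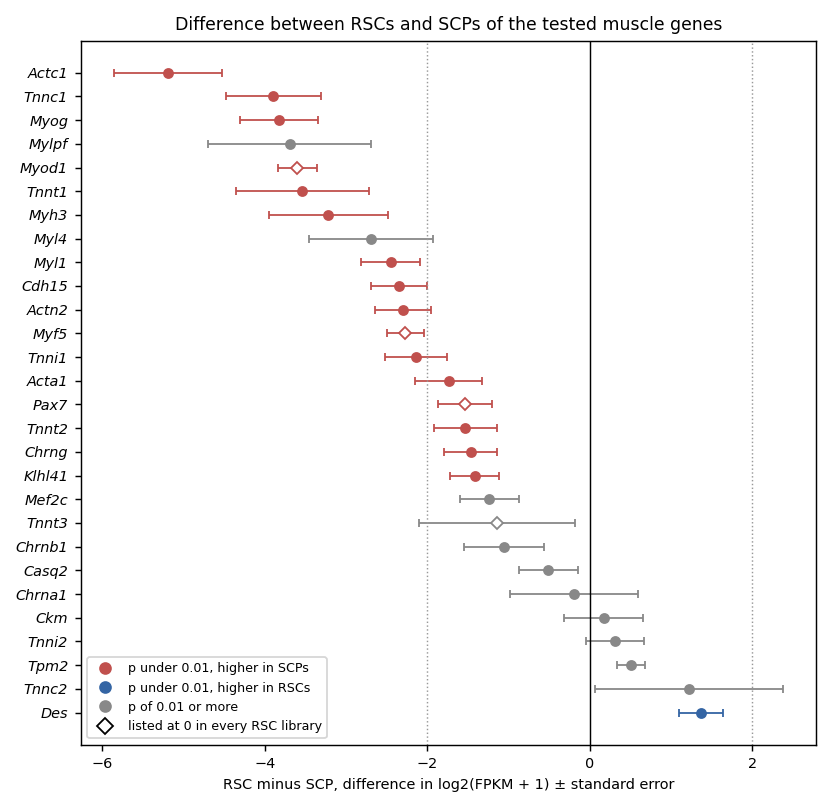
Difference in log2(FPKM + 1), RSC minus SCP, of the 28 tested genes with its standard error (n = 3 per group), with dotted lines at 2 and -2. Red marks differ at an unadjusted p under 0.01 with higher levels in SCPs (16 genes), the blue mark with higher levels in RSCs (Des), and gray marks did not pass (11 genes). Open diamonds were listed at 0 in every RSC library, so their size depends on the added 1.

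Desmin was the only gene of the group that passed toward RSCs in the main comparison. Des (chromosome 9 from 82556574 to 82564288) encodes the intermediate filament that ties sarcomeres together, which smooth muscle and mural cells also contain. It was at 6.03, 8.73 and 13.3 FPKM in SCP replicates 1, 2 and 3 and at 28.0, 23.1 and 23.0 in RSCs, a log2 difference of 1.37 (standard error 0.27, adjusted p = 0.0086). Its unadjusted p was 0.011 without SCP replicate 2 and 0.012 without RSC replicate 1. Among the proteins that anchor the filaments, Actn2 (chromosome 17 from 66304530 to 66397647), the Z-disc actinin, went the other way, at 2.44, 3.80 and 6.72 FPKM in SCPs and 0, 0 and 0.0735 in RSCs (log2 difference -2.30, standard error 0.34, adjusted p = 0.0027). The other members of this role stayed below the level for testing in their named transcripts. The M-band protein gene Myom1 was at 0.995, 1.59 and 1.12 FPKM in SCPs and 0.352, 0.213 and 0.264 in RSCs, and nebulin (Neb) at 0.837, 0.671 and 0.437 against 0.269, 0.0593 and 0.240. Titin (Ttn), the largest of these proteins, did not exceed 0.0336 FPKM in any library, and the Z-disc gene Ldb3 overlapped between the groups at 0.882 FPKM or less. With unnamed transcripts added, Ttn was at 0.0883, 0.359 and 0.131 FPKM in SCPs. Neb was then at 1.48, 1.70 and 2.82 in SCPs and 0.407, 0.312 and 0.468 in RSCs (log2 difference -1.08, standard error 0.215, adjusted p = 0.0043). Ldb3 was then at 0.114, 0.487 and 0.499 in SCPs and 1.22, 0.882 and 1.33 in RSCs.

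The receptor of the neuromuscular junction is built from the subunits of Chrna1, Chrnb1, Chrnd and, in the embryo, Chrng, and is clustered through the kinase Musk. Chrng (chromosome 9 from 94302218 to 94308591), the embryonic subunit, was at 0.948, 2.07 and 3.00 FPKM in SCPs and at 0.128, 0 and 0 in RSCs (log2 difference -1.47, standard error 0.33, adjusted p = 0.013). Its call was lost without any one of the RSC libraries (unadjusted p of 0.012 to 0.016). Its neighbor Chrnd, 7.2 kb away, was at 0.459, 0.965 and 2.30 FPKM in SCPs and was listed at 0 in every RSC library, below the level for testing. Both genes were highest in SCP replicate 3 and lowest in SCP replicate 1. Chrnb1 was at 4.14, 1.46 and 8.14 FPKM in SCPs and 1.01, 1.37 and 1.70 in RSCs, with overlap between the groups (log2 difference -1.06, standard error 0.50, adjusted p = 0.13), except without SCP replicate 2 (-1.55, unadjusted p = 0.0067). Chrna1 was listed at 0, 4.0 and 7.11 FPKM in SCPs and 1.36, 2.64 and 2.17 in RSCs (log2 difference -0.19, standard error 0.79, adjusted p = 0.86). In SCP replicate 1 an unnamed transcript of its locus held 6.33 FPKM, and with such transcripts added the difference of Chrna1 was -1.15 (standard error 0.25, adjusted p = 0.0066). Musk stayed at or below 0.711 FPKM in its named transcripts. The promoters of the neighbors Chrnd and Chrng are shown because the 2 genes lie next to each other and both are specific to the muscle receptor. Capitals mark E-boxes.
Chrnd promoter, chr9:95310066-95310365, plus strand: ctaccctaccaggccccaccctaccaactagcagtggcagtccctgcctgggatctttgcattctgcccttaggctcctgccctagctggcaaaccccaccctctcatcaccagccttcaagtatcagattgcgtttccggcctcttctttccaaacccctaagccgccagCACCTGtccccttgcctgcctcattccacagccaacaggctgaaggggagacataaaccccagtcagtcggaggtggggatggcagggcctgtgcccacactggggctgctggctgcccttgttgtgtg
Chrng promoter, chr9:95325734-95326033, plus strand: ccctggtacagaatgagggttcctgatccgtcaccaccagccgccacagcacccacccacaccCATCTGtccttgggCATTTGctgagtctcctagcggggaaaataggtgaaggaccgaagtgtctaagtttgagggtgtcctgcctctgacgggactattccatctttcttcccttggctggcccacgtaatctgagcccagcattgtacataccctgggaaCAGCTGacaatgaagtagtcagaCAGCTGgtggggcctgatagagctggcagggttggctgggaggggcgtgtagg
The Chrnd window held 1 E-box, at position -79, and the Chrng window held 4, at -187, -173, -26 and -3, of which the last 2 had the form CAGCTG.

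Genes of calcium release and energy buffering, which mark mature fibres, were low in both groups. Ryr1, the calcium release channel, was at 1.32, 1.73 and 1.30 FPKM in SCPs and 0.112, 0.0580 and 0.154 in RSCs, and passed, like Myom1 and Smyd1, only when no filter was applied (log2 difference -1.14, standard error 0.14, adjusted p = 0.0020). Its SCP values were close together. Casq2, which stores calcium in cardiac and slow muscle, was at 0.913, 2.21 and 2.57 FPKM in SCPs and 1.29, 0.406 and 1.34 in RSCs (adjusted p = 0.29). The muscle creatine kinase Ckm was at 2.78, 5.31 and 1.17 FPKM in SCPs and 2.35, 5.69 and 2.28 in RSCs (adjusted p = 0.80). Both overlapped between the groups. Myoglobin (Mb) was above 0 in a single library, SCP replicate 3, at 0.243 FPKM. The adhesion and assembly genes differed more. Cdh15 (chromosome 19 from 55669661 to 55689986), the M-cadherin of myoblasts and satellite cells, was at 4.02, 3.66 and 8.76 FPKM in SCPs and 0.0828, 0.377 and 0.160 in RSCs (log2 difference -2.35, standard error 0.35, adjusted p = 0.0027). Klhl41 (chromosome 3 from 55910177 to 55923303), which takes part in sarcomere assembly, was at 2.79, 3.23 and 6.23 FPKM in SCPs and 0.898, 0.728 and 0.868 in RSCs (log2 difference -1.41, standard error 0.30, adjusted p = 0.011), and its call was lost without any one of the RSC libraries (unadjusted p of 0.011 to 0.014). The methyltransferase gene Smyd1, needed for sarcomere assembly, was at 0.618, 1.13 and 1.65 FPKM in SCPs and was listed at 0 in every RSC library, below the level for testing.

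Paired isoform genes, embryonic against adult and slow against fast, were set side by side by their share of FPKM. Actc1 made up 74.1%, 78.3% and 86.6% of the summed FPKM of Actc1 and Acta1 in SCP replicates 1, 2 and 3 and 9.6%, 0% and 44.5% in the RSC replicates. The embryonic and perinatal heavy chains Myh3 and Myh8 made up 97.4%, 99.1% and 100% of the sum with the adult fast chains Myh1, Myh2 and Myh4 in SCPs and 35.6%, 5.2% and 35.0% in RSCs, where the whole sum was below 2 FPKM. With unnamed transcripts added, the share in SCP replicate 1 was 54.1%. Chrng made up 55.0%, 62.1% and 100% of the sum with its adult counterpart Chrne in SCPs, and the Chrne level was 0.774, 1.26 and 0 FPKM there and 1.36, 0.806 and 1.19 in RSCs. Slow Tnni1 made up 32.0%, 32.6% and 60.6% of the sum with fast Tnni2 in SCPs and 3.9%, 2.2% and 5.6% in RSCs. Slow Tnnt1 made up 52.8% of the sum with fast Tnnt3 in SCP replicate 1 and all of it where the sum was above 0 in other libraries. Unnamed transcripts within the span of Tnnt3 in RSCs were not counted in it. These shares are descriptions and were not tested.

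**Figure D3:**
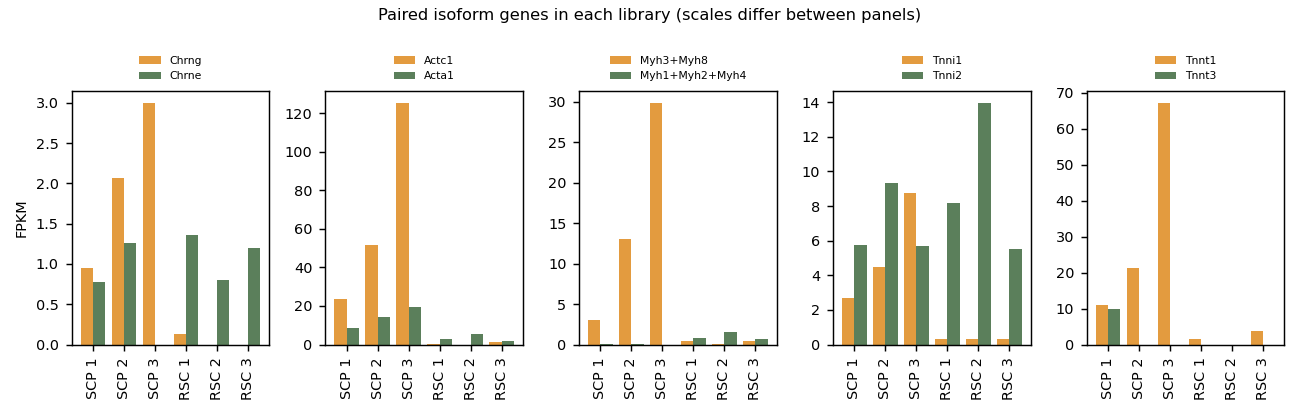
FPKM of paired isoform genes in each library as bars from 0, with the embryonic or slow gene in orange and the adult or fast gene in green, and a separate scale in each panel. The orange bars of Actc1 and of Myh3 plus Myh8 are the higher ones in all 3 SCP libraries, and the green bars of Tnni2 are the higher ones in all RSC libraries.

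The SCP libraries differed among themselves, and SCP replicate 3 held most of the contractile transcripts. Of the 39 genes above 0 in some SCP library, 27 (69.2%) were highest in SCP replicate 3, 8 in replicate 2 and 4 in replicate 1, and 29.0% of all tested genes above 0 in SCPs were highest in replicate 3. Among the contractile genes above 0 in replicate 1 (18 of 22), the median ratio of replicate 3 to replicate 1 was 2.58, against 0.933 over 11988 tested genes. The ratio was 9.82 for Myh3, the highest of the 33 muscle genes above 0 in replicate 1, and the median was 1.25 for the 5 detected transcription factors. The ratio of Myh3 uses named transcripts. With an unnamed transcript of its locus added, Myh3 in replicate 1 was at 5.16 in place of 3.04 FPKM, and replicate 3 was unchanged. The 20 contractile genes other than Tpm2 and Des summed to 126.6, 219.6 and 516.8 FPKM in SCP replicates 1, 2 and 3 and to 21.7, 43.9 and 33.1 in RSCs. The lowest SCP sum was above the highest RSC sum. Tpm2 and Des alone brought the sum of all 22 to 192, 303 and 613 FPKM in SCPs and 137, 187 and 159 in RSCs. Without SCP replicate 3, 11 of the 16 genes were higher in SCPs (19.9% of all tested genes), 8 of them over 4-fold. Acta1, Tnnt1 and Tnnt2 no longer passed, and Pax7 and Chrng were below the level for testing. Tnnc2 joined Des as higher in RSCs (17.5%), with a log2 difference of 2.59, since its named transcripts were listed at 0 in the other SCP libraries. SCP replicate 3 also had the highest SCP sums of the Schwann lineage, fibroblast, leukocyte, heart, erythroid and cartilage markers, whereas the sums of smooth muscle and endothelial markers were highest in replicate 2 and that of neuronal markers in replicate 1.

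**Figure D4:**
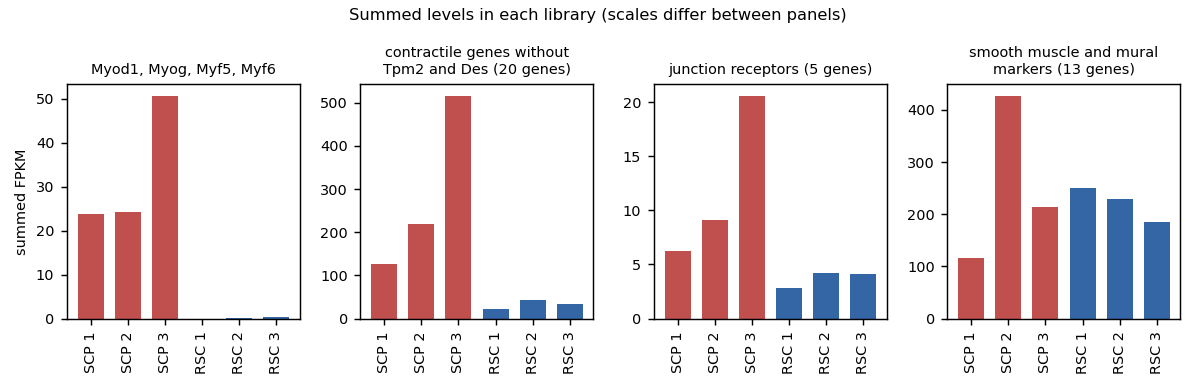
Summed FPKM in each library as bars from 0 (red, SCP; blue, RSC), with a separate scale in each panel, for the 4 myogenic factors, the 20 contractile genes other than Tpm2 and Des, the 5 junction receptors and 13 smooth muscle and mural markers. The first 3 sets are highest in SCP replicate 3, and the smooth muscle markers are highest in SCP replicate 2, at 427.

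Smooth muscle and heart share several of these genes. The 13 smooth muscle and mural markers, among them Acta2, Tagln and Myh11, summed to 117, 427 and 213 FPKM in SCP replicates 1, 2 and 3 and to 250, 230 and 186 in RSCs. Of the 11 tested, none passed limma at an unadjusted p under 0.01 in either direction and 1 passed at 0.05, and the pericyte marker Rgs5 was listed at 0 in every RSC library. The highest smooth muscle sum fell on SCP replicate 2, the highest contractile sum on replicate 3. Of 8 heart markers, Nppa, Nppb, Nkx2-5 and Myl7 were listed at 0 in all 6 libraries, and the list summed to 0, 1.98 and 7.06 FPKM in SCPs and 0.18, 0 and 0.30 in RSCs. Cardiac Tnni3, at 0, 1.28 and 7.06 FPKM in SCPs, accounted for most of it. The heart sum, like the contractile sum, was lowest in SCP replicate 1 and highest in replicate 3.

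By level, 13 of the 40 genes had an SCP mean above the median of all tested genes in SCPs (8.53 FPKM), and 4 lay above the upper quartile (23.0 FPKM): Tpm2, Actc1, Mylpf and Tnnt1. In RSCs 26 of the 40 had a mean under 1 FPKM, and 3 lay above the median of 8.12 FPKM. The 40 genes lie on 13 chromosomes, and 4 pairs of them are within 100 kb of each other.

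Other genes of muscle, on a list of 81 that does not overlap the 40, moved in both directions. Of these, 77 were listed and 37 tested, of which 14 were higher in SCPs (22.4% of all tested genes) and 6 in RSCs (18.1%), with a median log2 difference of -0.66. Among the genes higher in SCPs, the homeobox factor gene Six4 was at 5.53 ± 0.461 FPKM in SCPs and 0.241 ± 0.0869 in RSCs (SD, n = 3), a log2 difference of -2.40 (standard error 0.20, adjusted p = 0.00030). The muscle enolase Eno3 was at 9.60, 1.25 and 7.95 FPKM in SCPs and Tmem8c, the fusion protein myomaker, at 2.54, 2.50 and 7.29, and both were listed at 0 in every RSC library. The myosin-binding protein gene Mybph was at 2.21, 4.82 and 8.32 FPKM in SCPs and at 0, 0.242 and 0 in RSCs. Toward RSCs, Itga7, a laminin receptor chain of muscle that Schwann cells also make, was at 1.29 ± 0.274 FPKM in SCPs and 181 ± 19.2 in RSCs (SD, n = 3; log2 difference 6.31, standard error 0.14, adjusted p = 7.4e-06). Tmod1, which caps actin filaments, was listed at 0 in every SCP library and at 13.2, 11.7 and 6.55 FPKM in RSCs. The receptor gene Met was at 1.35 ± 0.912 FPKM in SCPs and 16.3 ± 1.05 in RSCs (SD, n = 3), and dystrophin (Dmd) was at 2.78 ± 1.53 and 12.3 ± 1.82. The actin nucleator Lmod2 was at 0.043, 0 and 0.045 FPKM in SCPs and 2.59, 3.28 and 2.80 in RSCs. The progenitor and fusion genes of this list gave 5 of 10 tested higher in SCPs and 2 in RSCs, the contractile genes 3 and 2 of 13, and the junction, membrane, calcium and energy genes 6 and 2 of 14.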

How the data were processed

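Poly(A) RNA of 3 SCP and 3 RSC preparations was sequenced by the authors as stranded libraries with paired-end reads. Per the submitters' processing notes and the paper's methods, FastQC 0.11.2, TopHat2 2.1.0 and Cufflinks 2.2.1 were used with the rn6 genome. For each library the authors deposited a Cufflinks transcript table with FPKM, normalized for transcript length and mapped fragments, and with the coverage, the signal used here for relative depth. FPKM of named transcripts was summed by symbol, leaving out 77 transcripts whose names had become dates. A gene with a close copy may share reads with it. Genes averaging 1 FPKM or more were compared by limma 3.58.1 (R 4.3.3), which took log2(FPKM + 1) as input, modelled the variance by level and gave two-sided tests of RSC minus SCP, at an unadjusted p under 0.01 and a log2 difference over 2. Adding 1 understates the change of low genes. The Benjamini-Hochberg adjustment covered all 13003 tested genes. The script was tested on simulated data.

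The 40 genes and the other lists were chosen with earlier results of these data known. All 40 are named. Of the other muscle genes, the 5 with the largest difference in each direction at an unadjusted p under 0.01 are named, except 1 that is not reported here, and of the marker lists, the defining genes listed at 0 and a few examples. Tnni3, Twist2, Prrx1 and Col2a1 were named after their values were seen. Promoters are RefSeq windows on GRCr8, matched by symbol. Alternatives tried were the highest transcript per gene, a mean of at least 5 FPKM or no filter, adjusted p, a pseudocount of 0.1, the replicate number as a block, scaling by quantiles or by the median of ratios, a constant variance prior, unnamed transcripts added to the gene of their locus, values of 0 left out, the ratio of group means and each library left out. Tables were handled with pandas 2.3.3. The labels name no batch, and Cuffdiff results were not used here. Without counts, no count-based test or counting interval can be given.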

Additional observations from a re-analysis of the deposited data

Results flagged for a closer look

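Transcripts without a gene name, which the main sums do not use, held signal in the locus of genes whose named transcripts were listed at 0 in the same library. This was the case for Tnnc2 in SCP replicate 1 (8.54 FPKM) and SCP replicate 2 (17.5 FPKM), for Chrna1 in SCP replicate 1 (6.33 FPKM), and for Musk in SCP replicate 3 (1.95 FPKM). In RSCs it was the case for Mylpf in replicate 1 (6.01 FPKM) and Tnnt1 in replicate 2 (4.06 FPKM). Other unnamed transcripts overlapped the span of a muscle gene but were assigned to no named gene, and were not added. For Tnnt3 these held 4.23 FPKM in RSC replicate 1 and 8.73 in RSC replicate 2. For Myh7 they held 4.69 FPKM in SCP replicate 2 and 3.11 in RSC replicate 1, and for Mylpf 1.73 in RSC replicate 1. The 23 muscle genes higher in SCPs with the unnamed transcripts added were the 16 higher without them and 7 more, Mef2c, Myl4, Mylpf, Tnnc2, Neb, Chrna1 and Chrnb1. Why Cufflinks left these transcripts unnamed was not tested.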

How the results depend on the processing

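The 17 genes that passed kept their direction under every alternative in which they were tested, and 9 of them kept their side of the threshold throughout. Over 455 single-gene values, 394 kept direction and side, 37 lost the call, 15 gained one and 9 reversed. The ratio of group means has no test, so its values were judged by direction only. The number of muscle genes higher in SCPs (16) was 9 with a mean of at least 5 FPKM (27.4% of all genes tested there). That filter took called genes such as Myf5, Cdh15 and Actn2 out of the test, so the 9 is out of fewer tested genes. The number was 9 with adjusted p (16.6%) and 9 to 15 with each library left out (17.9% to 19.9%), lowest without RSC replicate 1. The number higher in RSCs (1) was 2 with median-of-ratios scaling and 2 with the highest transcript per gene, where Tpm2 joined Des, 0 with the replicate block, and 0 to 2 with a library left out. Over 4-fold, the number higher in RSCs ranged from 0 to 1. Of the other muscle genes, the number higher in SCPs (14) was 3 with a mean of at least 5 FPKM. That filter left called genes such as Six4 and Mybph untested. The number was 9 with median-of-ratios scaling, 9 with the highest transcript per gene and 7 with adjusted p. With the replicate block it was 8, and with a library left out 7 to 10. The shares of all tested genes, in this order, were 27.4%, 16.8%, 20.9%, 16.6%, 17.3% and 17.9% to 19.9%. The same replicate numbers did not pair the samples (correlations of deviations 0.044, -0.005 and 0.026), and with the replicate block 13 muscle genes were higher in SCPs (17.3% of all tested genes).

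The genes that reversed had no call in the main comparison. Tnnc2 went to -1.53 with unnamed transcripts added, -1.53 with values of 0 left out and -0.07 with the ratio of group means. Chrna1 went to 0.54 with a pseudocount of 0.1, 0.078 without SCP replicate 2 and 0.43 without SCP replicate 3, in a range of -1.08 to 0.43 with a library left out. Ckm went to -0.22 without SCP replicate 3 and -0.17 without RSC replicate 2 (range -0.22 to 0.55), and Tnni2 to -0.007 without RSC replicate 2 (range -0.007 to 0.595). Values near 1 FPKM rest on few fragments, and the unknown depth limits what can be said of them.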
